A study of Mus musculus with 2 samples.

Results

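The mouse major histocompatibility complex (MHC) was taken as the stretch of chromosome 17 from 33.8 to 38 Mb (mm9). Touching 25-bp bins of the deposited CTCF track were joined into regions, and a region belonged to the stretch if its centre lay inside it. This gave 281 regions of 53551 in the whole map. The rule used positions only and no measured value, although the stretch was picked for description with earlier results of these data known. The map came from CD4-CD8- (DN) thymocytes of Rag1-/- mice on the C57BL/6 strain, 4 to 8 weeks old. Every sample of the series carried the Rag1 deletion. The labels describe 1 CTCF immunoprecipitate and 1 input control. The CTCF library alone was analysed here, without a replicate, so stretches of the genome were compared within that library and no test across animals was possible. How many animals were pooled is not stated in the labels.

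CTCF is a zinc-finger protein that binds DNA and, with the cohesin complex, marks the anchors of chromatin loops and the borders between chromatin domains. The MHC packs together genes of antigen presentation and immunity. Class I molecules show peptides to CD8 T cells, and class II molecules show them to CD4 T cells. In human cells, CTCF-bound elements between class II genes are known to take part in loops that contact class II promoters. T cell precursors are selected in the thymus on the MHC molecules of surrounding cells.

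The order of the genes gives the stretch its internal map. In the supplied RefSeq gene table, Tapbp, which helps to load peptides onto class I molecules, precedes H2-K1, a classical class I heavy chain gene. Next in that order are H2-Oa, H2-DMa, H2-DMb2 and H2-DMb1, whose products carry out or regulate the loading of peptides onto class II molecules. Psmb9, Tap1, Psmb8 and Tap2, which make and transport peptides for class I, lie between these and H2-Ob. The class II chain genes H2-Ab1, H2-Aa and H2-Eb1 come next, followed by H2-Eb2. The class III genes then run from Notch4, a receptor gene, through the complement genes C4b, Cfb and C2. After these come the histone methyltransferase gene Ehmt2, the heat shock genes Hspa1b and Hspa1a, and the cytokine genes Ltb, Tnf and Lta. H2-D1, the second classical class I gene of this strain, follows Ddx39b. From H2-K1 to H2-D1 the table lists 83 protein-coding genes, of which 12 carry an H2 name. From H2-D1 to H2-M2 it lists 87, with 6 H2-Q, 5 H2-T and 12 H2-M genes of the class I family and 16 olfactory receptor genes. That table follows another genome build (GRCm38), so only names and order were used, and no region was assigned to a gene. The borders of the segments below are approximate mm9 landmarks of 34.1 and 34.6 Mb for the H2-K and class II end, 35.4 Mb for H2-D and 37.5 Mb for the last distal class I genes. The DNA sequence beneath the regions was not analysed here.

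CTCF regions were crowded in the MHC. The density of the 281 regions was 66.9 per Mb, with an exact Poisson 95% interval of 59.3 to 75.2. It was 24.4 per Mb on the rest of chromosome 17 and 21.5 per Mb on the other autosomes. The ratio was 2.75 to the rest of the chromosome (exact 95% interval 2.42 to 3.11) and 3.11 to the other autosomes (2.76 to 3.50). The MHC took up 4.56% of the mapped length of chromosome 17, measured from its first to its last region, and held 11.6% of that chromosome's regions. The regions covered 112.1 kb, or 2.67% of the stretch, compared with 0.942% on the rest of chromosome 17 and 0.830% on the other autosomes. All intervals given here reflect counting error alone, which understates the error where regions cluster.

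The stretches on either side differed sharply. The adjoining stretch of 4.2 Mb toward lower coordinates held 201 regions, 47.9 per Mb (41.5 to 55.0). The MHC exceeded it 1.40-fold (1.16 to 1.68). The adjoining stretch toward higher coordinates held 14 regions, 3.33 per Mb (1.82 to 5.59). High CTCF density continued on the side below H2-K and broke off on the distal side.

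**Figure D1:**
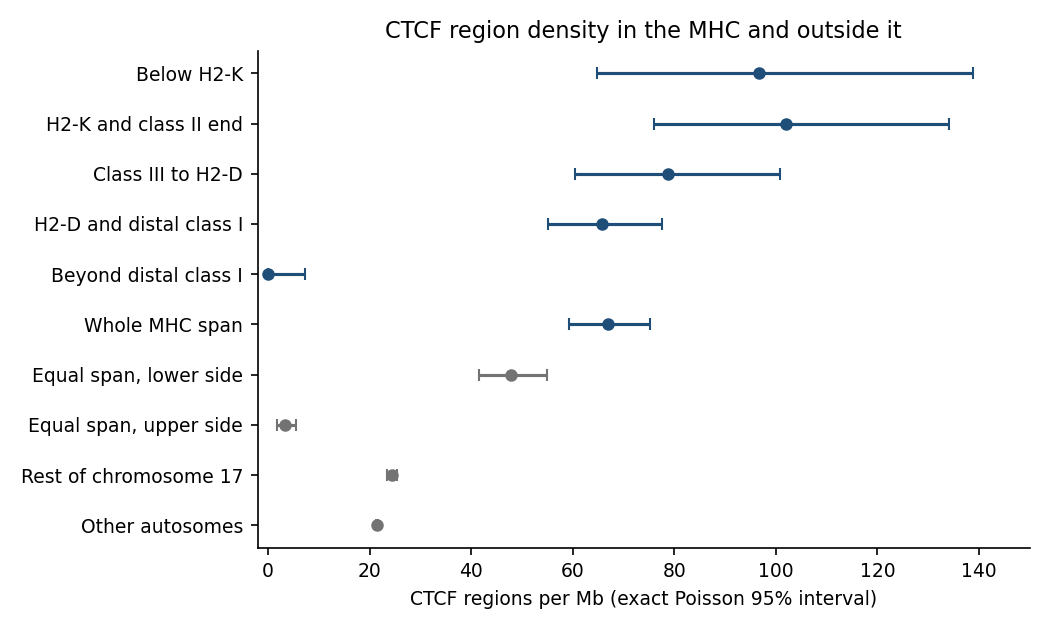
CTCF regions per Mb (horizontal axis) in the 5 segments of the MHC and the whole MHC (blue) and in 4 comparison stretches (grey), with exact Poisson 95% intervals. The first 4 segments lie between 65.7 and 102 regions per Mb, above the 21.5 per Mb of the other autosomes, and the last segment holds none.

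The H2-K and class II end had the highest density of the segments. Between 34.1 and 34.6 Mb lay 51 regions, 102 per Mb (exact Poisson 95% interval 76.0 to 134). Of these, 27 or 52.9% (38.5 to 67.1%) were 500 bp or wider, where 46.8% of all autosomal regions had that width. The median width of the 51 regions was 550 bp. The 0.3 Mb below this segment, before the H2-K landmark, held 29 regions, 96.7 per Mb (64.7 to 139), with a median width of 325 bp. The median widths had wide intervals that overlapped, 400 to 600 bp and 175 to 550 bp. The 2 densities differed by less than their counting error, with a ratio of 0.948 for the lower to the upper segment (0.579 to 1.52).

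The class III segment, from 34.6 Mb to the H2-D landmark at 35.4 Mb, held 63 regions, 78.8 per Mb (60.5 to 101). The segment from H2-D to the last distal class I genes held 138 regions over 2.1 Mb, 65.7 per Mb (55.2 to 77.6). It was 3.05 times as dense as the other autosomes (2.57 to 3.61). The remaining 0.5 Mb, beyond 37.5 Mb, held 0 regions, which allows a density of up to 7.38 per Mb. Of the 6 ratios among the first 4 segments, 1 had an interval that left out equality. It was that of the H2-K and class II end to the distal class I segment, 1.55 (1.10 to 2.16, not adjusted for the 6 ratios). It fell to 1.33 (0.942 to 1.84) when the longest gap between regions was taken out of the distal segment. The class III segment exceeded the distal class I segment 1.20-fold (0.875 to 1.63), which was within counting error.

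In steps of 250 kb the MHC had 2 crowded stretches with a trough between them. Of the 17 steps, the last of 200 kb, 9 held more than 13 regions, the upper decile of 9614 autosomal windows of 250 kb. Among all those windows 9.92% exceeded that count, and the median window held 4. A further 5 steps lay above this median, 1 step held 1 region and the last 2 held 0.

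**Figure D2:**
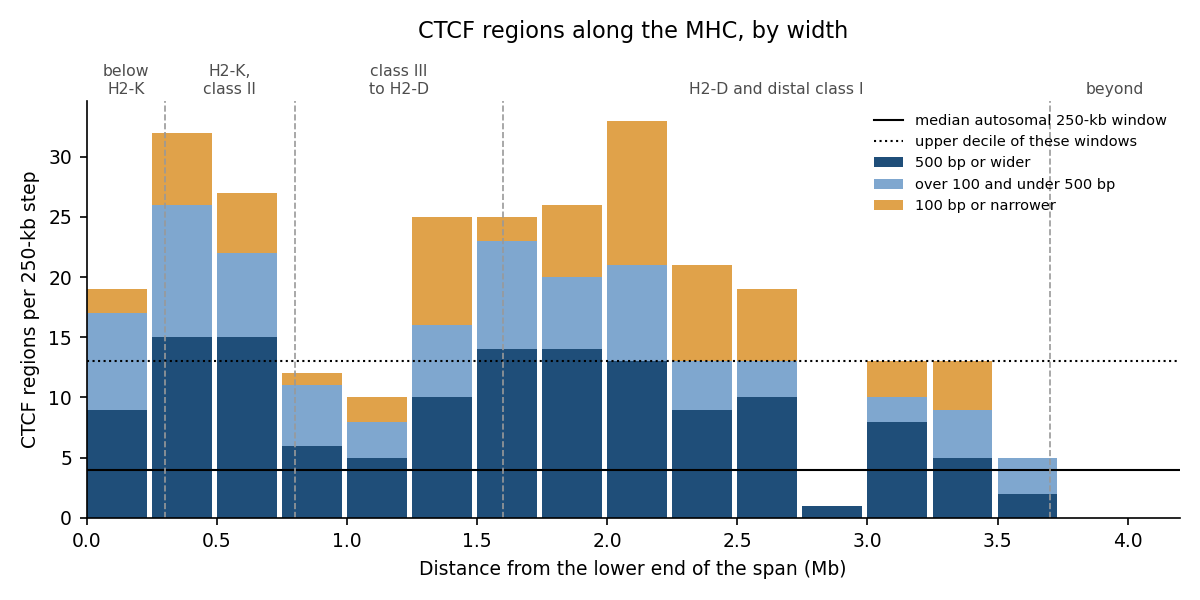
Number of CTCF regions in each 250-kb step (bars, split by region width) against the distance from the lower end of the MHC stretch, with dashed lines at the segment borders. The solid line marks the median autosomal window (4 regions) and the dotted line the upper decile (13). Counts peak at 32 and 33, fall to 10 between these peaks, and are 0 in the last 2 steps.

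The first crowded stretch lay around H2-K and class II. The opening step, from 33.8 to 34.05 Mb, held 19 regions. The next, from 34.05 to 34.3 Mb, held 32, a count that 0.146% of autosomal windows reached. Its first region began at 34051902 and its last ended at 34280751. This step contained 15 regions of 500 bp or wider and 6 of 100 bp or less, and its regions covered 13.8 kb, the largest covered length of the 17 steps. The step from 34.3 to 34.55 Mb held 27 regions, from 34301377 to 34548576, of which 15 were 500 bp or wider. Its median width of 575 bp equalled that of the step from 35.3 to 35.55 Mb. Over all autosomal regions, 46.8% were 500 bp or wider and 22.4% were 100 bp or less. The counts of wide and narrow regions by step, here and below, were not tested against these shares.

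The trough covered the start of the class III segment. The steps from 34.55 to 34.8 Mb and from 34.8 to 35.05 Mb held 12 and 10 regions. These counts were still above the median autosomal window, and 14.2% and 20.6% of windows held at least as many. The 3 longest gaps that began here measured 71.5 kb (34577227 to 34648726), 58.0 kb (34791302 to 34849251) and 72.3 kb (34860227 to 34932501). Gaps of 59.9 kb (35466902 to 35526801) and 55.4 kb (36075102 to 36130451) also occurred in the more crowded steps that follow. The trough nevertheless contained 3 of the 11 widest regions of the MHC. They measured 950 bp (34849827 to 34850776), 850 bp (34692277 to 34693126) and 850 bp (35048652 to 35049501).

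The second crowded stretch ran from the later class III segment across the H2-D landmark into the distal class I segment. Its 6 steps, from 35.05 to 36.55 Mb, held 149 regions over 1.5 Mb. The counts were 25, 25, 26, 33, 21 and 19 in order of position. The step from 35.8 to 36.05 Mb, with 33 regions from 35803202 to 36044976, had the highest count in the MHC and ranked 5 among the 9614 autosomal windows. Its regions were small, with a median of 225 bp, and 12 of them measured 100 bp or less. They covered 10.4 kb, less than the 32 regions of the step at 34.05 Mb. Equal counts also hid different contents on the 2 sides of 35.3 Mb. The 25 regions just below it covered 8.28 kb, with 10 of 500 bp or wider and 9 of 100 bp or less. The 25 just above it, where the H2-D landmark lies, covered 12.1 kb, with 14 and 2.

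The distal class I segment had a broken pattern. The step from 36.55 to 36.8 Mb held 1 region, of 625 bp (36555177 to 36555801). It was the only region of the MHC with no other region within 50 kb. The gap after it, 307 kb from 36555802 to 36862926, was the longest between 2 regions of the MHC. Of 52235 autosomal gaps, 2.34% were as long. On its other side the region was 60.3 kb from its neighbour (36494927 to 36555176). The second longest gap, 119 kb from 37221802 to 37340401, also lay in this segment. Beyond the gap of 307 kb the steps from 36.8 and from 37.05 Mb held 13 regions each, and the step from 37.3 Mb held 5. From the H2-D landmark to the start of the longest gap lay 107 regions, 92.6 per Mb (75.9 to 112). From its end to the last region lay 31, 59.0 per Mb (40.1 to 83.8). The ratio of the 2 sides was 1.57 (1.04 to 2.42). This division was chosen after the gap was seen, and its interval is a description.

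The last region of the MHC lay at 37387327 to 37388176, before the landmark of 37.5 Mb. It was 850 bp wide, as wide as the tenth in the order of widths. The next region in the map began at 39469502, so that 2081 kb without a region followed, which took in the distal end of the stretch and continued past 38 Mb. This gap ranked 25 among the autosomal gaps. In the gene table, the 20 protein-coding genes after H2-M2 are 20 olfactory receptor genes. Whether these genes lie in the empty stretch, and whether reads could be placed there, was not tested.

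**Figure D3:**
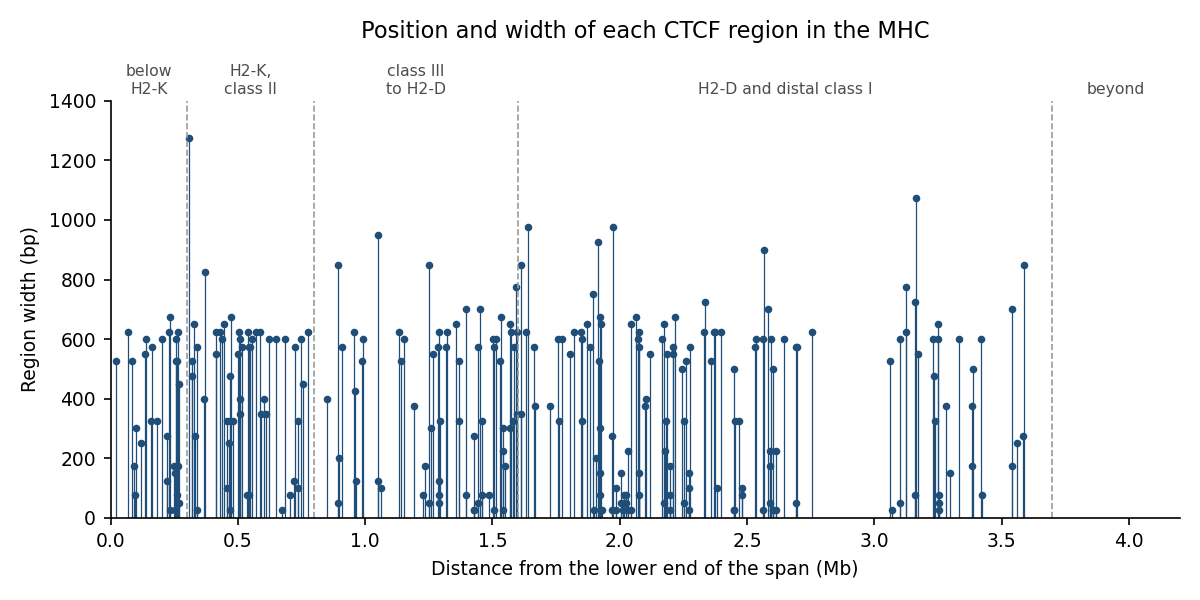
Each of the 281 CTCF regions as a line and point, with its width in bp (vertical axis) against its distance from the lower end of the MHC stretch. Regions of about 600 bp recur along the stretch, the widest (1275 bp) stands at the H2-K landmark, and the longest internal gap (307 kb) and the empty distal end are visible.

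The widest region of the MHC was 1 of 31, among 281, with no other region within 10 kb. On the less dense other autosomes, 17822 of 49832 regions had none within 10 kb. The widest MHC region measured 1275 bp, from 34105302 to 34106576, close to the H2-K landmark. The nearest regions were 37450 bp below it and 11500 bp above it. It was followed by a region of 1075 bp at 36962402 to 36963476, which had another region 0.825 kb away. After these came 2 regions of 975 bp, at 35438452 to 35439426 and 35772027 to 35773001. Regions of 950, 925 and 900 bp followed, at 34849827, 35715002 and 36367902. Next came 4 of 850 bp, at 34692277, 35048652, 35411577 and 37387327. Of these 11 regions, 7 lay in the segment from H2-D through distal class I, 3 in the class III segment and 1 in the H2-K and class II segment. In the same order, these segments held 138, 63 and 51 of all 281 regions, so the distal segment also had the most regions of any width. In the segment below H2-K the greatest width was 675 bp (34033852 to 34034526).

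Widths in the MHC were spread like those elsewhere, apart from the widest class. Regions of 500 bp or wider numbered 136, or 48.4% (exact binomial 95% interval 42.4 to 54.4%), where 46.8% of all autosomal regions had that width. Regions of 100 bp or less numbered 66, or 23.5% (18.7 to 28.9%), against 22.4%. Both shares were within counting error of the autosomal share. The most frequent width was 600 bp, with 28 regions. Widths of 25 and 625 bp had 26 each and 75 bp had 19, and a smaller maximum stood at 325 bp, with 17. Regions over 700 bp numbered 17, or 6.05% (3.56 to 9.51%), against 3.39% (3.23 to 3.55%) on the other autosomes. This interval lay just above the autosomal value, and the comparison was 1 of several on width.

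**Figure D4:**
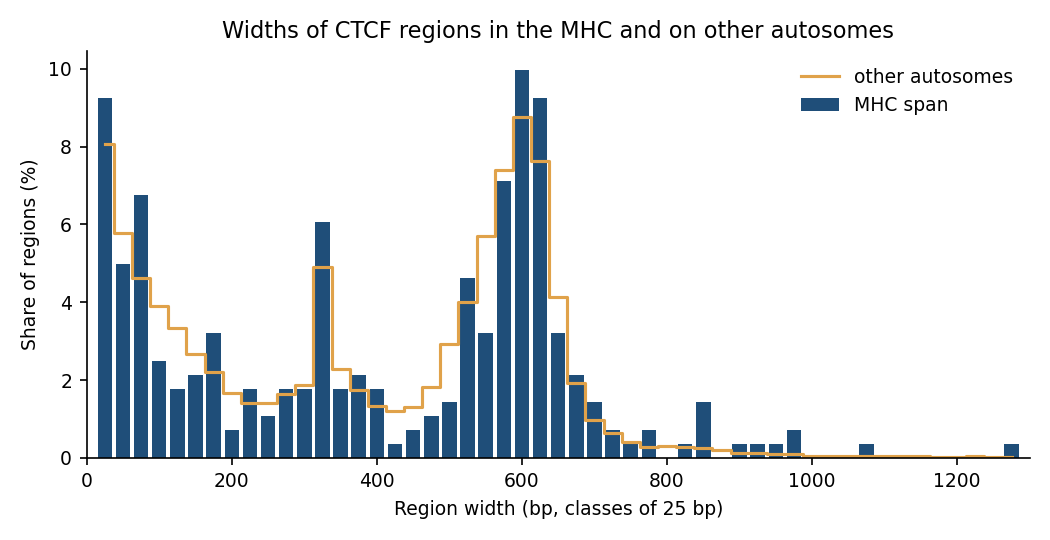
Share of regions (vertical axis, percent) in each 25-bp class of width, for the 281 MHC regions (bars) and the regions of the other autosomes (line). Both have maxima at 25 bp, 325 bp and 600 bp.

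The crowding of the MHC was present among wide regions too. Regions of 500 bp or wider stood at 32.4 per Mb (27.2 to 38.3), against 11.1 per Mb on the rest of chromosome 17 (10.4 to 11.8) and 10.1 per Mb on the other autosomes (9.95 to 10.2). Their density was 54.0 per Mb (35.6 to 78.6) at the H2-K and class II end and 31.4 per Mb (24.3 to 40.0) in the distal class I segment. The ratio of these 2 was 1.72 (1.055 to 2.73). Below H2-K the density of wide regions was 43.3 per Mb (23.1 to 74.1), and in the class III segment 37.5 per Mb (25.3 to 53.5). The separate intervals of these segments overlapped, which is not a test of their difference. The ratio of 1.72 was not adjusted for the other comparisons of segments. The median gap between wide regions was 16.2 kb (exact 95% interval 11.5 to 22.6 kb), and on the other autosomes it was 31.9 kb (31.1 to 32.7 kb).

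Neighbouring regions lay close together. The median gap between MHC regions was 5.49 kb (exact 95% interval 3.98 to 7.63 kb), against 12.7 kb on the rest of chromosome 17 and 14.5 kb on the other autosomes. Gaps over 1 and up to 10 kb were the most frequent class, 109 of 280 or 38.9% (33.2 to 44.9%), compared with 25.9% (25.5 to 26.3%) on the other autosomes. Gaps over 50 kb were 9 in number, 3.21% (1.48 to 6.01%), compared with 21.2% (20.9 to 21.6%). Gaps of up to 200 bp made up 15.4% (11.3 to 20.1%) against 11.2% (10.9 to 11.4%). Narrow regions took a large part in these. Of the 66 regions of 100 bp or less, 62.1% (49.3 to 73.8%) had another region within 200 bp, against 48.6% (47.7 to 49.5%) on the other autosomes. For regions of 500 bp or wider, the share was 10.3% (5.74 to 16.7%) against 7.63% (7.29 to 7.98%). The other autosomes were less dense, and these shares of gaps and neighbours were not computed in windows as dense as the MHC.

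**Figure D5:**
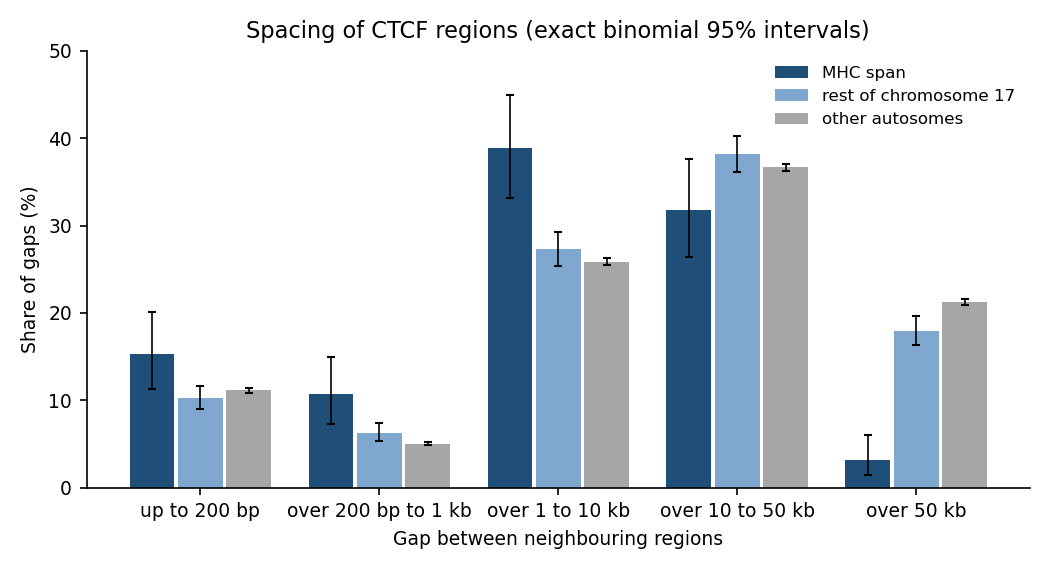
Share of gaps between neighbouring regions (vertical axis, percent) in 5 classes of length, for the MHC, the rest of chromosome 17 and the other autosomes, with exact binomial 95% intervals. The MHC has 38.9% of its gaps at over 1 to 10 kb and 3.21% above 50 kb.

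Regions separated by up to 10 kb formed runs. There were 99 runs, of which 31 held 1 region and 17 held 5 or more, and these 17 contained 117 of the 281 regions. On the other autosomes, where regions were less dense, 17822 of 49832 had no other region within 10 kb. Runs as such were not counted outside the MHC, so whether its numbers differ from those of equally dense stretches was not tested. The 2 runs with the most regions had 11 each and lay in different parts of the MHC. The first, from 34047702 to 34067851, was 20.2 kb long and lay just below the H2-K landmark. Its widest regions, of 525, 600, 525 and 625 bp, stood among regions of 25 to 450 bp. The second, from 35693602 to 35728676, was 35.1 kb long and lay beyond the H2-D landmark. It included regions of 750 and 925 bp, and 5 of its 11 regions were 500 bp or wider. When regions within 1000 bp were counted as joined, these runs held 6 and 7. A run of 8 regions, from 35368827 to 35396376, lay directly before the H2-D landmark. Its regions measured 300 to 775 bp, 5 of them at least 500 bp, and it held 0 regions of 100 bp or less.

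Some stretches of equal length elsewhere held as many regions as the MHC. On the autosomes, 557 windows of 4.2 Mb had a median of 77 regions, and the MHC ranked 7, level with a window on chromosome 8 from 122 Mb. The top count, 306, was also on chromosome 17, from 25.4 to 29.6 Mb. By covered length the MHC ranked 9. The other 7 windows with at least 281 regions were set beside it. In steps of 100 kb, 8 of its 42 were empty, compared with 0 to 4 in the other 7. Its median gap, 5.49 kb, was below theirs, which ran from 6.65 to 8.93 kb, but its interval (3.98 to 7.63 kb) reached into that range. With regions within 200 bp joined it was 8.05 kb, and the other windows were not recomputed with that setting. The longest gap and the fullest 100-kb step did not single it out either. A window on chromosome 11 from 96.8 Mb had a longer longest gap (430 kb against 307 kb), and a window on chromosome 5 from 122 Mb had a fuller 100-kb step (21 regions against 18). Of the 8 empty steps, 6 lay beyond 37.4 Mb and 2 lay in the 307-kb gap. No test was made of these differences, since the windows are not replicates. Without the empty ends, from the first to the last region, the MHC had 78.8 regions per Mb (69.9 to 88.6). The other 7 windows were not shortened in this way, so this value cannot be ranked with theirs.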

How the data were processed

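CTCF chromatin immunoprecipitation was followed by sequencing. The submitters' processing notes name Bowtie and mm9. The sources used here do not give the peak caller, the threshold or whether the input library was used. The authors deposited 825544 bins of 25 bp as positions only, per the file header and values, with no score, height or p-value. Depth is therefore unknown, and a stretch without regions does not show that CTCF was absent there. No file of the input library was used.

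Positions were converted to 1-based coordinates. Width was the length of a region. Density was regions per Mb, and for whole chromosomes the span from first to last region was the length. Exact 95% intervals were taken for counts (Poisson) and shares (binomial), for density ratios through the binomial share, and for medians from order statistics. Windows for ranks had the same length and phase as the steps and lay fully between the first and last region of a chromosome. The span and its landmarks were taken as given and not checked against an mm9 annotation. The gene table, of GRCm38, gave names and order. Promoters and the CTCF motif were planned and not run, for want of mm9 genes and sequence.

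The named items were the 10 widest regions (11 with ties), the 3 fullest and 3 emptiest steps, and the longest gaps. Runs with the most regions and genes in fixed lists were also named. Members, lists and landmarks were chosen with earlier results of these data known. The 100-kb steps, the division at the longest gap and the stretch from first to last region were added after the values were seen. The code was tested on simulated data. The tools were Python 3.11.15 with pandas 2.3.3, scipy 1.17.1, matplotlib 3.10.9 and numpy 2.4.6.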

Additional observations from a re-analysis of the deposited data

How the results depend on the processing

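For 7 results 36 alternative values were computed. Of these, 26 fell inside the reported interval (for the number of regions, within 1.5 times) and 10 moved. The 281 regions became 136 when only those of 500 bp or wider were kept, by construction. The density ratio to the other autosomes, 3.11, became 2.75 with regions within 1000 bp joined and 3.66 from the first to the last region. The share of wide regions, 48.4%, became 58.0% with joining within 200 bp, 64.4% within 1000 bp, and 32.0% when wide began at 600 bp. The median gap of 5.49 kb became 8.05 kb and 9.35 kb with those joinings, 8.78 kb without regions of 100 bp or less and 16.2 kb among regions of 500 bp or wider. The value from first to last region has the same regions over a shorter length, the value at 600 bp has a higher limit of width, and the others have fewer or longer regions. Other causes were not tested. The ratio of the H2-K and class II end to the distal class I segment ranged from 1.33 to 1.86 over its alternatives, and only without the longest gap did its interval reach below 1. The share of steps above the upper decile, 52.9%, ranged from 47.6% to 66.7%. Joining, step size and width filters do not show how many weaker sites the authors' threshold left out. No paired analysis was possible because the data come from 1 library.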

Other observations

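A run of 9 regions beyond H2-D, from 35803202 to 35832551, differed in kind from the other MHC runs of 8 or more regions. None of its regions reached 500 bp, and 7 measured 100 bp or less. The widest, 225 bp, closed the run at 35832551. They fell at 5 places spread over 29.4 kb, and at 4 of these places 2 regions lay 50 to 100 bp apart. The gaps between the places were 7375, 5625, 9000 and 6350 bp. In all, the run covered 0.725 kb, where the run of 8 regions just before the H2-D landmark covered 4.23 kb. The input library was not analysed here, and whether these small regions are CTCF sites was not tested.

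At a scale of 100 kb, the fullest part of the MHC lay directly before the H2-D landmark. From 35.3 to 35.4 Mb there were 18 regions, 10 of them 500 bp or wider, and this window ranked 9 of 24060 on the autosomes. From 34.0 to 34.1 Mb, directly before the H2-K landmark, there were 17, of which 7 were 500 bp or wider. The step from 35.8 to 35.9 Mb also held 17, with 5 of 500 bp or wider and 9 of 100 bp or less. The landmarks are approximate, so the distance of these regions from the H2-K1 and H2-D1 genes was not measured.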
